A study of Mus musculus with 7 samples.

Results

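The 10 genes described here mark the cells that line blood vessels and the wide sinusoids of bone marrow. They were taken by exact symbol from the 55401 genes of the deposited count table. All 10 were found (*Pecam1*, *Cdh5*, *Kdr*, *Flt1*, *Flt4*, *Tek*, *Tie1*, *Emcn*, *Eng*, and *Vwf*), and all 10 were among the 16429 genes that passed the filter on low counts. Their levels were not used to choose them, although earlier results of these data were known when the set was proposed. RNA-Seq had been performed on right knees of male C57BL/6J mice that underwent destabilization of the medial meniscus (DMM), a surgical model of posttraumatic OA, at 10 weeks of age and were euthanized 2 weeks later. The labels give 4 WT samples and 3 samples of *Trpc1*-/- mice, which carry the Trpc1tm1Lbi allele, a germline deletion of an exon that leaves a premature stop codon, whereas the methods of the study give the group sizes the other way round. The labels were used. Each sample pooled the tissue of 2 to 3 mice, and all were operated, so that no sham or unoperated knee enters any value here. The labels name the tissue as articular cartilage, and the methods of the study add subchondral bone.

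Healthy articular cartilage carries no blood vessels. Subchondral bone and marrow, by contrast, are densely supplied, and in OA vessels grow toward the cartilage from below. Endothelial cells are held together by PECAM1 and VE-cadherin (*Cdh5*), sense VEGF ligands through the receptors VEGFR1 (*Flt1*), VEGFR2 (*Kdr*), and VEGFR3 (*Flt4*), and sense angiopoietins through TIE2 (*Tek*), with TIE1 as its partner receptor. Sinusoidal endothelium of the marrow is known for high *Flt4* and for scavenger receptors such as stabilin-2, and endomucin (*Emcn*) marks capillaries and sinusoids more than arteries.

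The counts on genes lay between 52142451 and 118254070 per sample. *Trpc1* itself lay between 4.33 and 4.83 CPM (the count scaled to library size with TMM factors) in WT and between 3.04 and 3.79 CPM in *Trpc1*-/- samples (logFC −0.44, SE 0.13), where reads of the missing exon were not told apart from those of the rest of *Trpc1*. Cartilage markers were present in every sample, with *Col2a1*, the main cartilage collagen, at a mean of 2977 CPM in WT, and so were markers of blood cell formation. The erythroid markers summed to between 19390 and 36420 CPM in WT and to between 42100 and 57500 CPM in *Trpc1*-/- samples. WT replicate 1 stood apart in its marrow markers, with 5405 CPM of neutrophil markers against 12660 to 17140 CPM in the other 6 samples. The samples are labelled as biological replicates. In bulk tissue of this kind, fewer endothelial cells and less RNA per endothelial cell cannot be told apart.

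The stretches upstream of the start site are given here for *Tie1* and *Emcn*, which differed most between the genotypes, *Tek*, the paralog of *Tie1*, and *Kdr*, which differed least. They were chosen after these values were seen. Each covers the 250 bases before the RefSeq start of the gene (build GRCm38.p6), 5′ to 3′ on the strand of the gene. Capitals mark CAGGAA or CCGGAA on either strand, which are forms of the core that ETS transcription factors bind.
Tie1 (chr4:118489850-118490099, minus strand): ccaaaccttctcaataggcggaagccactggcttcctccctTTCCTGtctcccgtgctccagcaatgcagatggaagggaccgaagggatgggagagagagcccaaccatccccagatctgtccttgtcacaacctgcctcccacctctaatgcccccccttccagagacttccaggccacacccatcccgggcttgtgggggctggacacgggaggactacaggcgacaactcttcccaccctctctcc
Tek (chr4:94739039-94739288, plus strand): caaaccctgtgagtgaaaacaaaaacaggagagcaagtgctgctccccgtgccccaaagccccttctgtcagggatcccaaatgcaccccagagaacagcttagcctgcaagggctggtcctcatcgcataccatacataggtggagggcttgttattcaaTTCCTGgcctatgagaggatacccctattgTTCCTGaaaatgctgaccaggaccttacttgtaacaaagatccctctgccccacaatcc
Emcn (chr3:137340828-137341077, plus strand): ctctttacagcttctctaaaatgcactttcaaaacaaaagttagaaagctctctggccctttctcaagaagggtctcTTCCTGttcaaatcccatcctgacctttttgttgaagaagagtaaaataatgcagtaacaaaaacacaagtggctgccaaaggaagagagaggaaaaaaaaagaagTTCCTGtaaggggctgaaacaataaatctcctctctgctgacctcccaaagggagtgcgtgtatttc
Kdr (chr5:75978456-75978705, minus strand): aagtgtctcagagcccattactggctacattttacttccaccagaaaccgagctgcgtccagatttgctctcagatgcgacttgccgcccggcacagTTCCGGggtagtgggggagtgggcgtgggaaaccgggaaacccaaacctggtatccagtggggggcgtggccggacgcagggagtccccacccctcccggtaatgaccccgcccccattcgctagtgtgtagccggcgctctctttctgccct

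RefSeq promoters were matched for 7 of the 10 genes, and *Pecam1*, *Cdh5*, and *Vwf* were not matched. CAGGAA was found, on either strand, upstream of the RefSeq start of 3 of the 7 (*Emcn*, *Tek*, and *Tie1*), and 25.4% of 27025 promoters of the same length hold it. CCGGAA was found upstream of *Kdr* alone, with 12.2% of all promoters holding it. The GATA motif AGATAA was found in 0 of the 7 (10.3% of all promoters), and the TATA box letters TATAAA in that of *Flt1* alone (13.0%). In GC content the upstream stretches ran from 40.8% in *Emcn* to 70.4% in *Flt1*. These matches are descriptions of letters. The RefSeq starts differ from the outermost starts of the GENCODE annotation for some genes. In GENCODE *Tie1* starts at 118490061, so that most of its stretch, with the marked match, lies inside the annotated gene. The stretch of *Flt4* (49609429 to 49609678) lies wholly inside its gene, which starts at 49609263. *Tie1* and *Tek* lie on the same chromosome, 4, of GRCm38 (from 118471191 to 118490061 and from 94739289 to 94874976), and *Kdr* and *Flt1* share chromosome 5. Despite their kinship, the annotated transcripts of *Tie1* and *Tek* shared no stretch of 25 bases. *Kdr* and *Flt1* shared 2 such stretches, *Pecam1* and *Tie1* shared 8, *Pecam1* and *Flt1* shared 1, and the other 42 of the 45 pairs shared 0. *Eng* overlaps 61 exonic bases of *Fpgs* on the opposite strand, and the aligner was run with the strand setting of the kit.

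Endothelial transcripts were of middling abundance in this tissue. Per kilobase of annotated exon and over all 7 samples, *Pecam1* was highest at 10.85 ± 0.578 CPM per kb (SD, n = 7), followed by *Cdh5* (9.38 ± 0.39), *Vwf* (8.20 ± 1.09), and *Eng* (7.84 ± 0.912). *Kdr* (4.68 ± 0.234), *Tie1* (4.65 ± 0.649), and *Tek* (4.35 ± 0.393) formed a middle tier. *Flt4* (2.92 ± 0.255), *Emcn* (2.26 ± 0.248), and *Flt1* (1.74 ± 0.253) were lowest. On this scale *Pecam1* exceeded 78.55% of the tested genes and *Flt1* 27.4%. The sample ranges of neighbours in the order overlapped except between *Pecam1* and *Cdh5*, between *Eng* and *Kdr*, and between *Tek* and *Flt4*. The order rests in part on the length used. Per kilobase of the longest protein-coding transcript, a scale added after the data were seen, *Vwf* (14.9 CPM per kb) came second, before *Cdh5* (9.87), and *Emcn* (4.72) moved ahead of *Tek* (4.41), while *Pecam1* stayed first (19.6) and *Flt1* last (3.41).

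**Figure D1:**
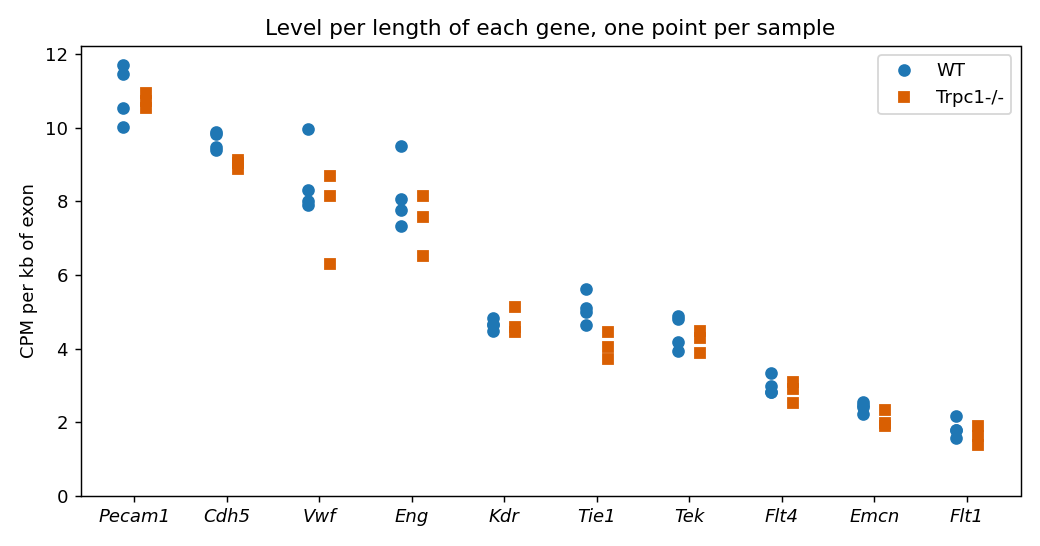
Level of each of the 10 genes in CPM per kilobase of annotated exon (y axis, linear from 0), ordered by the mean over all samples, with 1 point per sample (blue circles, 4 WT samples; orange squares, 3 Trpc1-/- samples). Pecam1, Cdh5, Vwf, and Eng lie above the VEGF and TIE receptors, and the genotypes lie close together within each gene.

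The comparison of genotypes asks whether loss of TRPC1 altered the vascular part of the joint transcriptome early after DMM. Over the 10 genes the differences were small. *Tie1* had the largest, at 0.800 times the WT level (95% confidence interval 0.689 to 0.928), and *Kdr* alone of the 10 had a higher mean in *Trpc1*-/- samples, with 9 lower. The median logFC (log2 of *Trpc1*-/- over WT) of the 10 genes was −0.12, compared with −0.0088 over all tested genes, of which 51.9% had a negative logFC. The quasi-likelihood (QL) test of edgeR, with P adjusted over all tested genes, called 0 of the 10 at 0.05 (0.0% of all tested genes), DESeq2 called 0 (1.79% of all tested genes), and limma-voom called 0. At an unadjusted P under 0.05, edgeR found 1 of the 10, *Tie1*, against 10.0% of all tested genes. The expression of 2 of the 10, *Tie1* and *Cdh5*, did not overlap between the groups and was lower in *Trpc1*-/- samples, and the groups did not overlap in 13.6% of all tested genes, 6.42% being lower. With samples left out in turn, the median of the 10 genes was −0.052 without *Trpc1*-/- replicate 1 and −0.18 without *Trpc1*-/- replicate 2.

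Among the VEGF receptors, *Kdr*, which carries most of the growth signal of VEGF-A, had 42.0, 42.1, 40.4, and 43.7 CPM in WT replicates 1 to 4 and 40.2, 46.3, and 41.4 CPM in *Trpc1*-/- replicates 1 to 3. The groups overlapped, and the highest value was that of *Trpc1*-/- replicate 2. The logFC was 0.020 (SE 0.072, 95% confidence interval −0.15 to 0.19, edgeR QL adjusted P = 0.926). *Flt1*, a decoy receptor that binds VEGF-A tightly and is also made in a soluble form, had 29.1, 24.25, 21.2, and 24.0 CPM in WT and 18.6, 25.7, and 21.8 CPM in *Trpc1*-/- samples. WT replicate 1 was highest and *Trpc1*-/- replicate 1 lowest, with a wide overlap between them. Its logFC was −0.16 (SE 0.14, interval −0.49 to 0.17, edgeR adjusted P = 0.681), and the gene counts do not separate the soluble form. *Flt4*, the receptor of VEGF-C and VEGF-D in lymphatic and sinusoidal endothelium, had 23.2, 24.6, 23.2, and 27.4 CPM in WT and 20.7, 25.4, and 23.9 CPM in *Trpc1*-/- samples, with overlapping groups. Its logFC was −0.077 (SE 0.098, interval −0.30 to 0.15, edgeR adjusted P = 0.778).

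Of the TIE receptors, *Tie1*, an orphan receptor that pairs with TIE2 and tunes its signal, had 25.1, 24.5, 27.6, and 22.85 CPM in WT replicates 1 to 4 and 18.3, 21.9, and 19.8 CPM in *Trpc1*-/- replicates 1 to 3. Every *Trpc1*-/- sample lay below every WT sample, and the gap was narrow, between WT replicate 4 and *Trpc1*-/- replicate 2. The means were 25.02 ± 1.97 CPM (SD, n = 4) and 20.0 ± 1.79 CPM (SD, n = 3). Its logFC was −0.32 (SE 0.093, interval −0.54 to −0.11), with an edgeR QL unadjusted P = 0.00885, an edgeR adjusted P = 0.407, and a DESeq2 adjusted P = 0.104, none of the adjusted values passing the threshold. When samples were left out singly the logFC lay from −0.40 to −0.26, and the unadjusted P was under 0.05 in 7 of the 7 edgeR fits. *Tek*, which encodes TIE2, had 18.55, 23.1, 22.6, and 19.75 CPM in WT and 18.3, 20.2, and 21.1 CPM in *Trpc1*-/- samples. The groups overlapped almost entirely, with a logFC of −0.080 (SE 0.10, interval −0.31 to 0.15, edgeR adjusted P = 0.774). The difference between the logFC values of *Tie1* and *Tek* was not tested.

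Of the junction proteins, *Cdh5*, which encodes the cadherin of endothelial adherens junctions, was the steadiest gene of the 10. It had 39.5, 41.35, 39.8, and 41.6 CPM in WT and 37.3, 38.3, and 38.1 CPM in *Trpc1*-/- samples, and the groups did not overlap although their means differed by little (40.6 ± 1.06 CPM, SD, n = 4, and 37.9 ± 0.543 CPM, SD, n = 3). The logFC was −0.098 (SE 0.058, interval −0.23 to 0.036, edgeR QL adjusted P = 0.570). *Pecam1*, an adhesion molecule that platelets, neutrophils, and monocytes also carry, had 62.5, 71.4, 72.9, and 65.7 CPM in WT and 66.8, 65.6, and 68.2 CPM in *Trpc1*-/- samples. The *Trpc1*-/- values lay inside the WT range. Its logFC was −0.028 (SE 0.077, interval −0.21 to 0.15, edgeR adjusted P = 0.908).

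Among the surface and secreted markers, *Emcn*, a sialomucin that is high in sinusoids and in the capillaries next to growing bone, had 11.95, 13.3, 13.7, and 13.0 CPM in WT and 10.6, 12.6, and 10.2 CPM in *Trpc1*-/- samples. *Trpc1*-/- replicates 1 and 3 lay below all WT samples, and *Trpc1*-/- replicate 2 lay among them. Its logFC of −0.22 (SE 0.10, interval −0.45 to 0.011, edgeR QL adjusted P = 0.508) was the second in size of the 10. *Eng*, a coreceptor of BMP9 and TGF-β, had 38.45, 31.5, 29.7, and 32.6 CPM in WT and 26.4, 33.0, and 30.6 CPM in *Trpc1*-/- samples, with WT replicate 1 highest and overlapping groups (logFC −0.14, SE 0.11, interval −0.40 to 0.13, edgeR adjusted P = 0.666). *Vwf*, the clotting factor stored by endothelium and by megakaryocytes, had 160.3, 128.9, 127.0, and 133.5 CPM in WT and 131.1, 139.8, and 101.3 CPM in *Trpc1*-/- samples. WT replicate 1 was again highest, *Trpc1*-/- replicate 3 was lowest, and the groups overlapped (logFC −0.15, SE 0.14, interval −0.47 to 0.17, edgeR adjusted P = 0.698). Counting error was below the spread between samples for most of the 10 genes, but not for all values of *Cdh5*. The lowest single count was 567, for *Emcn* in WT replicate 1, whose counting SD was 4.2%, whereas replicates of 1 genotype varied by 1.43% (*Cdh5* in *Trpc1*-/- samples) to 16.3% (*Flt1* in *Trpc1*-/- samples).

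**Figure D2:**
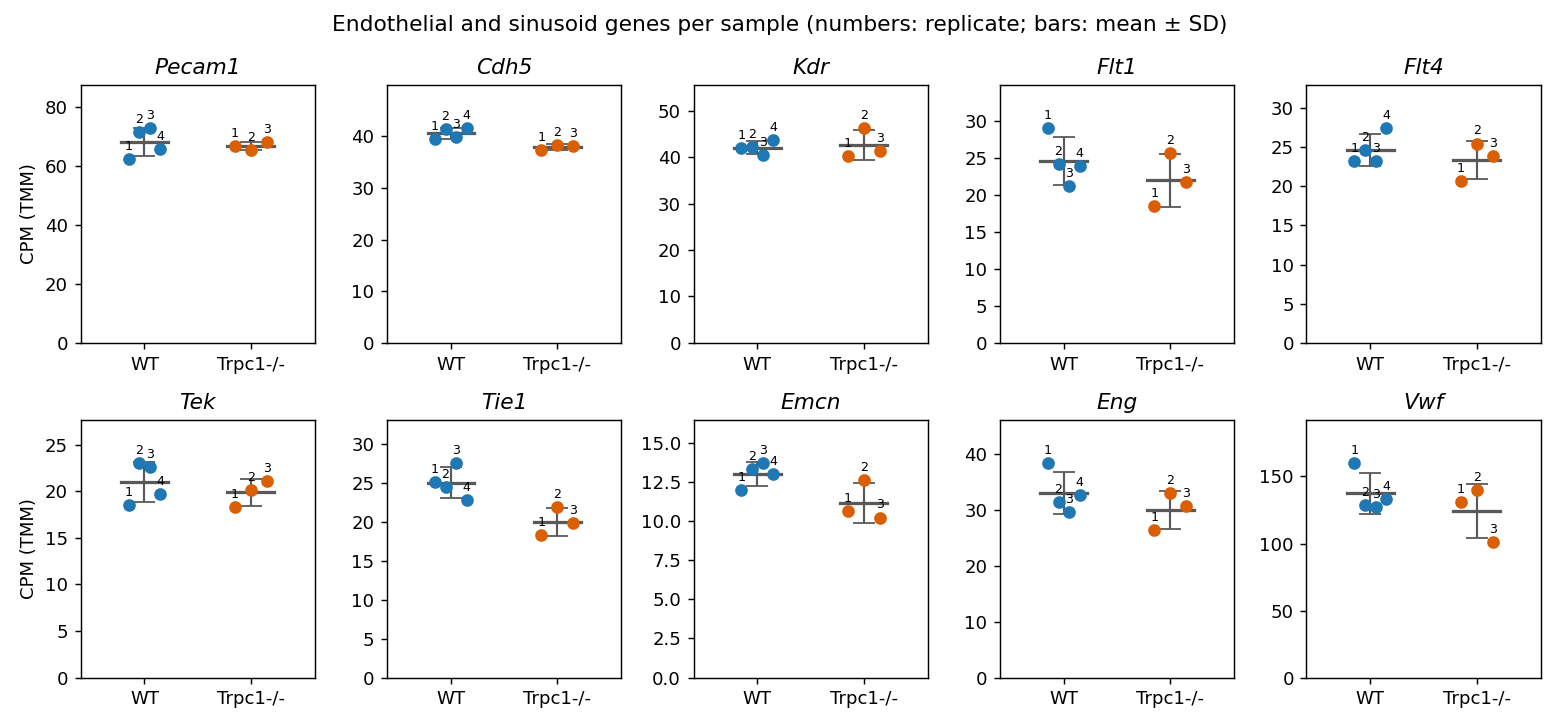
Level of each gene in CPM after TMM scaling (y axis, linear from 0) in the 4 WT (blue) and 3 Trpc1-/- samples (orange), with the replicate number above each point and bars for the mean ± SD. Tie1 and Cdh5 are the 2 genes whose groups do not overlap, and in Tie1 the means are 25.02 and 20.0 CPM.

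The samples of a genotype were not uniform. *Trpc1*-/- replicate 1 had the lowest value of all 7 samples in 7 of the 10 genes (*Cdh5*, *Kdr*, *Flt1*, *Flt4*, *Tek*, *Tie1*, and *Eng*), and *Trpc1*-/- replicate 3 in 2, *Emcn* and *Vwf*. *Trpc1*-/- replicate 2 was lowest in 0 genes and highest in *Kdr*. Summed over the 10 genes, it had 428.9 CPM, inside the WT range of 418.1 to 450.7 CPM, whereas *Trpc1*-/- replicates 1 and 3 had 388.3 and 376.4 CPM. The same split was seen in cartilage markers, which summed to 6023 CPM in *Trpc1*-/- replicate 2, to 3167 and 3397 CPM in *Trpc1*-/- replicates 1 and 3, and to between 5625 and 5898 CPM in WT, and its part in the values of the endothelial genes was not tested. WT samples also differed among themselves in which genes were high. In WT replicate 1, which had the fewest marrow markers, *Flt1*, *Eng*, and *Vwf* were the highest of all samples, and *Pecam1* was the lowest. The mean log2 CPM of the 10 genes was 0.13 lower in *Trpc1*-/- than in WT samples and 0.12 lower without WT replicate 1.

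**Figure D3:**
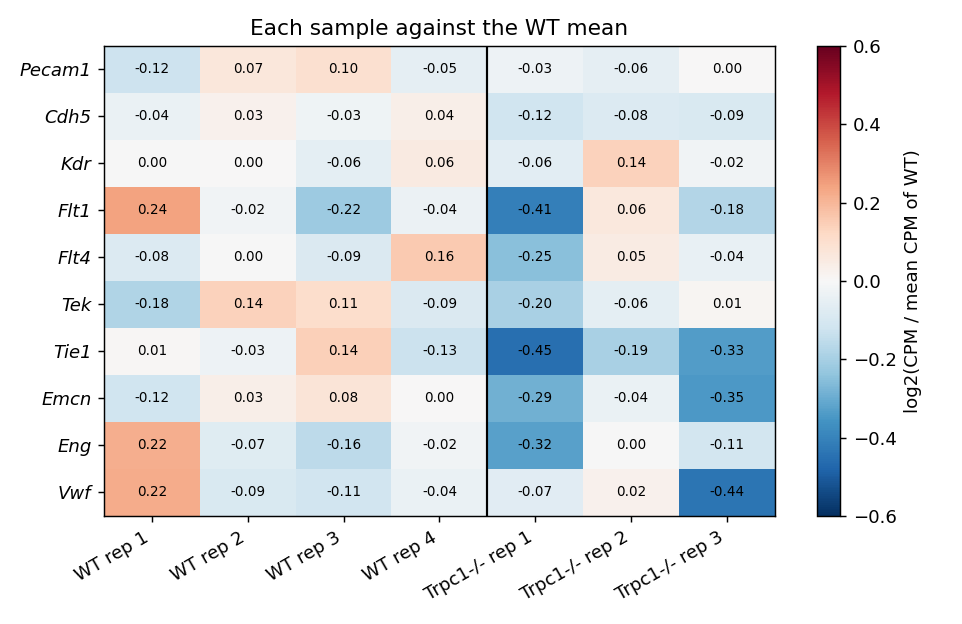
Level of each gene (rows) in each sample (columns) as log2 of its CPM over the mean CPM of the WT samples, with the value in each cell and a line between the genotypes. Trpc1-/- replicate 1 is lowest in 7 of the 10 genes, and WT replicate 1 is highest in Flt1, Eng, and Vwf. Trpc1-/- replicate 2 lies below all WT samples in Tie1 and Cdh5 alone.

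The ligands of these receptors are made largely by other cells, such as hypertrophic chondrocytes and osteoblasts. Of the VEGF ligands and the neuropilin coreceptors, 5 of 7 had a negative logFC (median −0.069), 2 had an unadjusted P under 0.05, both lower (5.49% of all tested genes), and edgeR and DESeq2 called 0. The median was −0.11 without WT replicate 1. *Vegfa*, the chief growth factor of endothelium, had 45.0, 35.65, 35.2, and 33.9 CPM in WT and 28.8, 30.9, and 26.5 CPM in *Trpc1*-/- samples. The groups did not overlap, and WT replicate 1 stood above the other WT samples. Its logFC was −0.38 (SE 0.11, interval −0.65 to −0.11, edgeR QL adjusted P = 0.408) and −0.28 at its smallest with a sample left out. *Pgf*, which encodes placental growth factor, a ligand of VEGFR1 alone, lay at 4.48 ± 0.388 CPM (SD, n = 4) in the WT group against 3.45 ± 0.366 CPM (SD, n = 3) in the *Trpc1*-/- group without overlap (logFC −0.38, SE 0.14, edgeR adjusted P = 0.455). *Vegfb*, a further ligand of VEGFR1, and *Vegfc* and *Vegfd*, the ligands of VEGFR3, differed by a logFC of 0.14 (SE 0.15) for *Vegfb*, −0.058 (SE 0.10) for *Vegfc*, and 0.19 (SE 0.20) for *Vegfd*, and their groups overlapped. *Nrp2*, the coreceptor that binds VEGF-C, had a logFC of −0.30 (SE 0.15), with *Trpc1*-/- replicate 2 among the WT values at 181.7 CPM and *Trpc1*-/- replicates 1 and 3 at 133.0 and 125.3 CPM. *Nrp1*, the coreceptor of VEGF-A, had a logFC of −0.069 (SE 0.073).

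For the TIE receptors, *Angpt1*, the agonist of TIE2 made by stromal and mural cells, and *Angpt2*, its context-dependent antagonist released by endothelium, had logFC values of opposite sign. *Angpt1* had 32.3, 41.4, 41.4, and 37.2 CPM in WT and 45.4, 40.8, and 39.1 CPM in *Trpc1*-/- samples, with overlap (logFC 0.13, SE 0.11, edgeR QL adjusted P = 0.658). *Angpt2* had 5.71, 6.735, 6.02, and 6.08 CPM in WT and 4.605, 5.30, and 4.67 CPM in *Trpc1*-/- samples. The groups did not overlap (logFC −0.34, SE 0.11, interval −0.60 to −0.078, edgeR adjusted P = 0.433), and the difference between both angiopoietins was not tested. *Angpt4* had a logFC of −0.047 (SE 0.15). *Ptprb*, the phosphatase that dampens TIE2, had a logFC of −0.16 (SE 0.15) and overlapping groups. The list of angiopoietins and other TIE ligands or regulators had a median of −0.16, with 4 of 5 lower. Of the 5, 1 had an unadjusted P under 0.05 in edgeR and was lower (5.49% of all tested genes), and edgeR and DESeq2 called 0. The median was −0.046 without WT replicate 1 and −0.0563 without *Trpc1*-/- replicate 1.

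**Figure D4:**
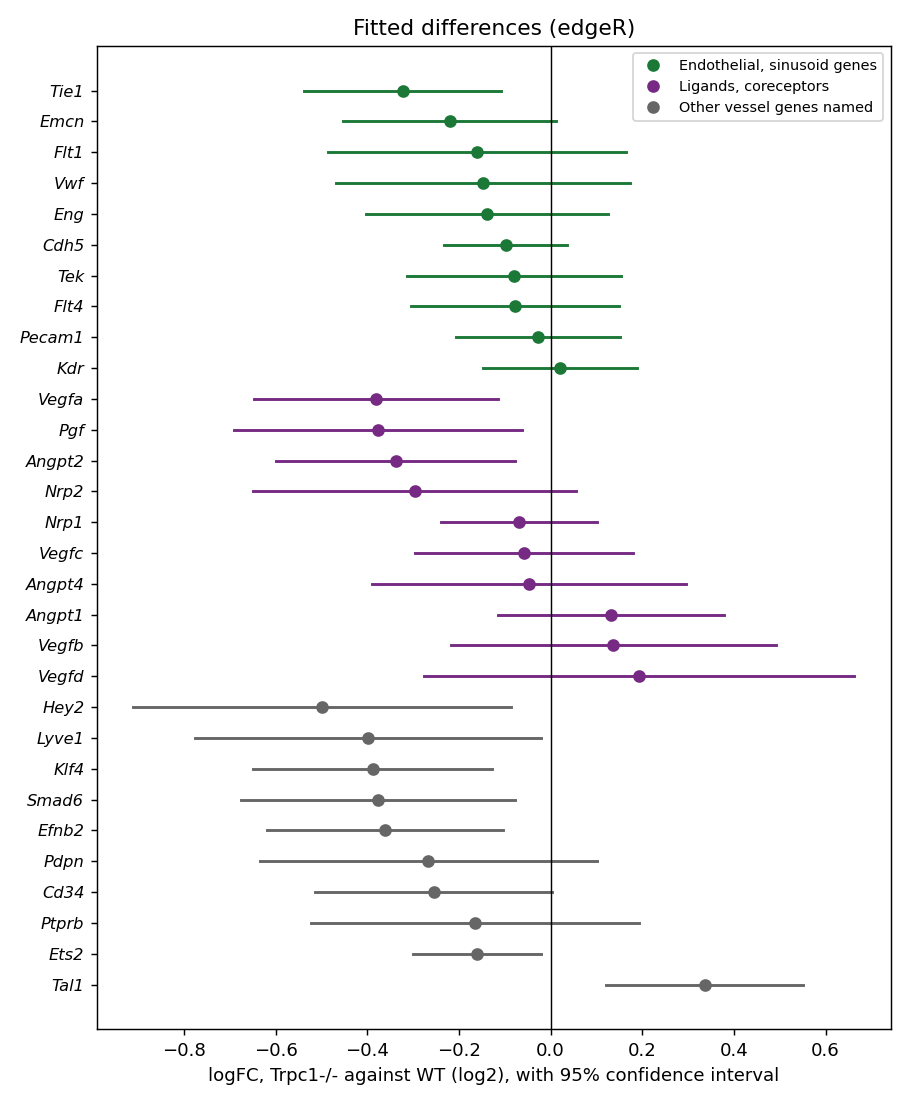
Fitted logFC (x axis, log2 of Trpc1-/- over WT) with its 95% confidence interval from edgeR for the 10 endothelial and sinusoid genes (green), the VEGF and angiopoietin ligands and neuropilins (purple), and the further vessel genes picked by their P value (grey). Of the 10 genes the interval of Tie1 alone excludes 0, while those of Vegfa, Pgf, and Angpt2 among the ligands also do, and no gene shown passed adjustment in edgeR, while DESeq2 called Tal1.

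Beyond the 10 genes, 9 lists of vessel genes held 72 tested genes. Of these, 54 (75.0%, against 51.9% of all tested genes) had a negative logFC, with a median of −0.098 (−0.0088 over all tested genes). At an unadjusted P under 0.05, edgeR found 9 lower (12.5%, against 5.49% of all tested genes) and 1 higher (1.39%, against 4.51%). edgeR called 0 of the 72 at an adjusted P under 0.05, and DESeq2 called 1, *Tal1*. The groups did not overlap in 9 that were lower (12.5%, against 6.42%) and in 4 that were higher (5.56%, against 7.15%). These counts are descriptions, since the genes are not independent of each other. The lists are not vascular throughout, as they hold the VEGF ligands, made largely by other cells, and genes that other cells carry too. Both counts of lower genes include the ligands *Vegfa* and *Pgf*, and *Hey2*, which passed the filter through WT samples alone.

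In the endothelial Notch and apelin list, 7 of 8 genes were lower, with a median of −0.26 that was −0.15 without WT replicate 1. Without overlap between the groups, 2 of the 8 were lower, *Hey2* among them (6.42% of all tested genes). *Hey2*, a target of Notch signaling in arterial endothelium, lay at 1.10 ± 0.0755 CPM (SD, n = 4) in the WT group against 0.780 ± 0.0788 CPM (SD, n = 3) in the *Trpc1*-/- group, without overlap (logFC −0.50, SE 0.18, edgeR QL adjusted P = 0.454). Every *Trpc1*-/- value, at most 0.849 CPM, lay below the 1 CPM that the filter asks for. *Hey2* thus passed through WT samples alone, and its lack of overlap is no support for a difference. *Efnb2*, the arterial ephrin, had 9.34, 9.30, 8.36, and 9.72 CPM in WT and 6.45, 8.10, and 6.88 CPM in *Trpc1*-/- samples, again without overlap (logFC −0.36, SE 0.11, edgeR adjusted P = 0.410), and 4 of the 5 arterial genes were lower (median −0.27). Of the partners and targets of endoglin, *Gdf2* and *Bmp10*, its ligands, which liver and heart release, did not pass the filter. *Smad6*, an inhibitor induced by BMP signals, had a logFC of −0.38 (SE 0.13, edgeR adjusted P = 0.442) with overlapping groups. The other 3 genes of that list lay between −0.071 and 0.022. The median of the list was −0.048. It was 0.00167 without *Trpc1*-/- replicate 1, and −0.080 without *Trpc1*-/- replicate 2, −0.080 without *Trpc1*-/- replicate 3, and −0.078 without WT replicate 4.

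The transcription factors of endothelium split. *Klf4*, which responds to blood flow, lay at 37.2 ± 4.32 CPM (SD, n = 4) in the WT group against 28.4 ± 2.81 CPM (SD, n = 3) in the *Trpc1*-/- group, without overlap (logFC −0.39, SE 0.11, edgeR QL adjusted P = 0.407). *Ets2* was lower without overlap by a logFC of −0.16 (SE 0.060, edgeR adjusted P = 0.462). *Tal1*, which endothelial and erythroid cells both use, had 94.85, 103.9, 105.0, and 96.45 CPM in WT and 141.3, 116.9, and 120.7 CPM in *Trpc1*-/- samples, all higher (logFC 0.34, SE 0.093, edgeR adjusted P = 0.396, DESeq2 adjusted P = 0.0412). The erythroid markers given above were also higher in all *Trpc1*-/- samples, and their part in the value of *Tal1* was not tested. The other 9 factors had an unadjusted P above 0.05, and the median of the 12 was −0.053. That median was −0.00786 without *Trpc1*-/- replicate 1, −0.019 without WT replicate 1, −0.020 without WT replicate 2, and −0.11 without *Trpc1*-/- replicate 3.

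Of 18 other endothelial markers, 16 were lower, with a median of −0.085 that was −0.032 without *Trpc1*-/- replicate 1, −0.045 without WT replicate 3, and −0.16 without *Trpc1*-/- replicate 2. The groups did not overlap in 1 that was lower (6.42% of all tested genes) and in 1 that was higher (7.15%). At an unadjusted P under 0.05 edgeR found 0 of the 18, and edgeR and DESeq2 called 0. *Cd34*, a sialomucin of vessels and progenitor cells, came nearest (logFC −0.26, SE 0.11, edgeR QL adjusted P = 0.502), with overlapping groups. Of 8 sinusoid scavenger receptors and endothelial adhesion molecules, 5 were lower and 3 higher, with a median of −0.050 (−0.029 without WT replicate 4) over values that ran from −0.40 to 0.41. The 2 genes of this list without overlap were both higher (7.15% of all tested genes), and they are named after their values were seen. *Vcam1*, an adhesion molecule that marrow stroma and macrophages also carry, had 168.1, 272.0, 292.9, and 272.7 CPM in WT and 341.5, 297.9, and 363.5 CPM in *Trpc1*-/- samples (logFC 0.41, SE 0.19, edgeR adjusted P = 0.511). *Sele*, which encodes E-selectin, had 6.58, 9.24, 9.77, and 9.52 CPM in WT and 11.3, 10.8, and 10.5 CPM in *Trpc1*-/- samples (logFC 0.31, SE 0.14, edgeR adjusted P = 0.510). In both genes WT replicate 1 was the lowest sample, and the logFC without it was 0.26 for *Vcam1* and 0.19 for *Sele*. *Lyve1*, a hyaluronan receptor of lymphatic and sinusoidal endothelium and some macrophages, had 15.9, 14.3, 13.7, and 9.87 CPM in WT and 10.6, 9.09, and 10.8 CPM in *Trpc1*-/- samples, where WT replicate 4 lay among the *Trpc1*-/- values (logFC −0.40, SE 0.16, edgeR adjusted P = 0.484). Of the lymphatic list, 3 of 5 genes were lower, with a median of −0.20 that ran from −0.39 without WT replicate 4 to 0.059 without WT replicate 3 and lay nearer to 0 than −0.12 without any 1 of the other samples, and 0 had an unadjusted P under 0.05. *Pdpn*, which chondrocytes and osteocytes carry too, had the smallest unadjusted P of that list (logFC −0.27, SE 0.16, edgeR adjusted P = 0.572). Of 8 angiogenesis inhibitors of cartilage and joint, 7 were lower, with a median of −0.26. *Col18a1*, whose cleaved end is endostatin, was the 1 with an unadjusted P under 0.05 in edgeR, and was lower (5.49% of all tested genes). Its *Trpc1*-/- and WT values overlapped (logFC −0.44, SE 0.15, edgeR adjusted P = 0.449).

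Markers of the cells around and beside the vessels differed in both directions. All 10 tested markers of pericytes and smooth muscle, the cells that wrap vessels, were lower (median −0.27). *Rgs5* (118.6 ± 13.0 CPM, SD, n = 4, in the WT group against 96.9 ± 4.27 CPM, SD, n = 3) and *Pdgfrb* (80.0 ± 6.47 and 65.8 ± 7.82 CPM) were lower without overlap, as were 6.42% of all tested genes. The summed level of the 10 markers lay between 403.4 and 527.2 CPM in WT and between 338.8 and 402.2 CPM in *Trpc1*-/- samples. The 12 megakaryocyte and platelet markers, whose cells also contain *Vwf* and *Pecam1*, had a median of 0.015, and 0 had an unadjusted P under 0.05. Their sum overlapped (689.3 to 1120 CPM in WT, 846.0 to 1089 CPM in *Trpc1*-/-) and was lowest in WT replicate 1, the sample with the highest *Vwf*. *Pf4* had a logFC of 0.19 (SE 0.23). The median of that list was −0.096 without WT replicate 1, −0.030 without *Trpc1*-/- replicate 1, −0.020 without *Trpc1*-/- replicate 2, and 0.10 without *Trpc1*-/- replicate 3. Macrophage markers were higher in 9 of 10 (median 0.25, and 0.13 without WT replicate 1), led by *Mrc1* (logFC 0.32, SE 0.099) and *Cd163* (0.42, SE 0.15), and summed to between 541.5 and 756.2 CPM in WT and between 737.9 and 839.4 CPM in *Trpc1*-/- samples. All 9 neutrophil markers were higher (median 0.10, which ran from −0.13 without WT replicate 1 to 0.24 without WT replicate 4), with *Camp* at a logFC of 0.36 (SE 0.28). All 11 tested erythroid markers were higher (median 0.55), with 10 reaching an unadjusted P under 0.05 in edgeR (4.51% of all tested genes, counting those higher). In DESeq2 4 passed (1.79% of all tested genes), among them *Alas2*, the first enzyme of heme synthesis in red cell precursors (logFC 0.62, SE 0.16).

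All 9 chondrocyte markers were lower in *Trpc1*-/- samples (median −0.42, and −0.78 without *Trpc1*-/- replicate 2 or −0.27 without *Trpc1*-/- replicate 1), with *Comp* (logFC −0.42, SE 0.16) and *Col9a2* (−0.60, SE 0.25) at an unadjusted P under 0.05 in edgeR. All 9 osteoblast and osteocyte markers were lower as well (median −0.29, and −0.52 without *Trpc1*-/- replicate 2), with *Phex* at −0.34 (SE 0.14). Of all genes in these lists of other cells, edgeR called 0. Since endothelial values are shares of the total RNA, each stands beside these differences in other cells, whose part in them was not tested.

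**Figure D5:**
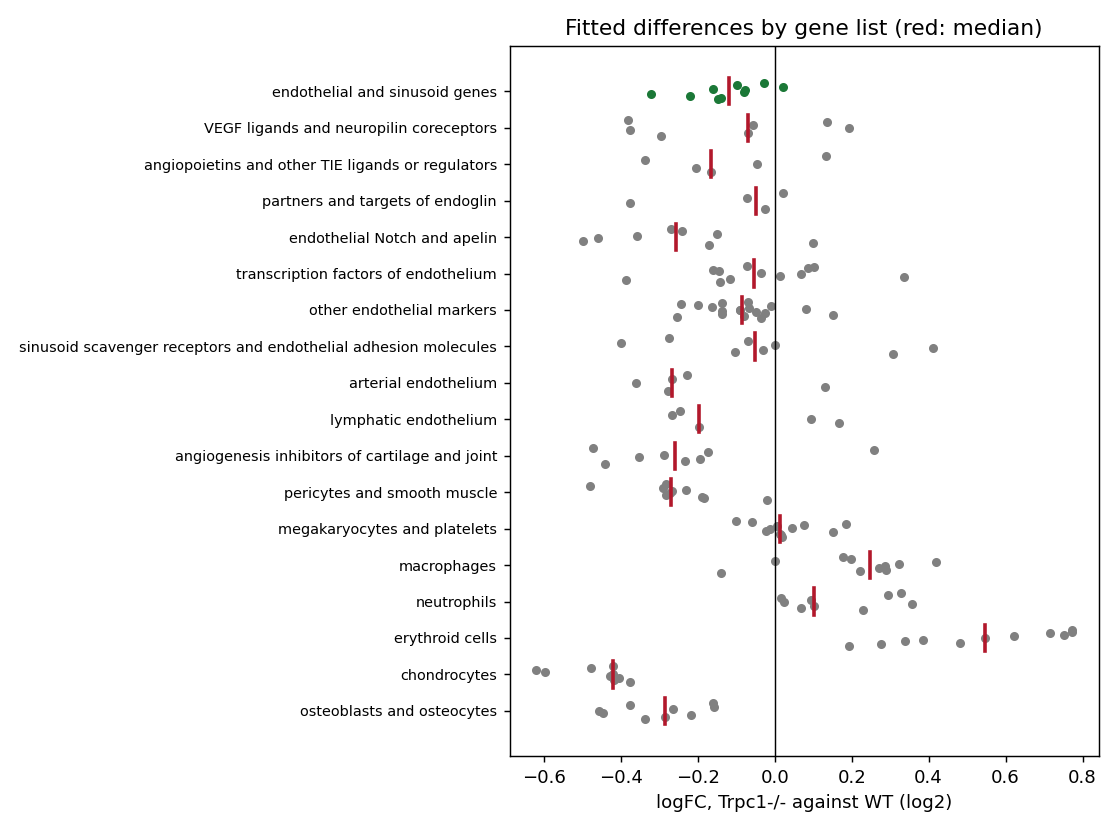
Fitted logFC of each tested gene (points; x axis, log2 of Trpc1-/- over WT) by gene list, with the 10 endothelial and sinusoid genes in green and the median of each list as a red bar. The median of the 10 genes is −0.12, that of the chondrocyte markers −0.42, and that of the erythroid markers 0.55.

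By sample-to-sample pattern, the genes most like the mean of the 10 (Pearson's r of log2 CPM over the 7 samples, among 11885 other genes with a mean of at least 5 CPM) were *Sec24c* (r = 0.988), *Trp53bp2* (0.986), *Col2a1* (0.978), *Col11a2* (0.975), and *Heyl* (0.974). *Sec24c* encodes a coat protein of secretory vesicles, *Col2a1* and *Col11a2* encode cartilage collagens, and *Heyl* is a Notch target. When the deviations from the group means were correlated instead, 2 of the 5, *Trp53bp2* and *Col2a1*, remained among the first 5. With 7 samples and many genes, such values are a description only.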

How the data were processed

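RNA was extracted by the authors from cartilage and subchondral bone of 7 pooled samples, ribosomal RNA was depleted, and stranded libraries were sequenced from both ends. Per the labels and the methods of the study, reads were trimmed with Cutadapt 2.5 and aligned with HISAT2 2.1.0 to GRCm38. StringTie 2.0.3 estimated coverage, and its script gave the deposited values, which are estimated counts per gene, whole numbers and not normalized. Counts derived from coverage fix how reads shared between genes were assigned.

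The filter required over 1 CPM in 2 or more samples and left 16429 of 55401 genes. In R 4.3.3, TMM factors were applied and edgeR 4.0.16 (quasi-likelihood F test) was fitted with genotype alone, with Benjamini-Hochberg adjustment over all tested genes at a threshold of 0.05. Levels are CPM on this scale. Standard errors were taken from the F statistic, and confidence intervals used the test's degrees of freedom. DESeq2 1.42.0 and limma 3.58.1 (voom), other normalizations and filters, the replicate number as a block, the mouse numbers, and each sample left out in turn were alternatives. What is called a mouse number here was read from the digits of the library name, although each sample is a pool. The edgeR, DESeq2, and limma-voom fits with genotype alone were first tested on simulated data, for the sign and size of known differences. The other fits, the standard errors, and the intervals were not tested in this way. Exon lengths and positions came from GENCODE M21 and promoters from RefSeq. The samples are labelled as biological replicates, each a pool of mice. The P values set the difference between genotypes against the spread between these pools, not between single mice. A floor of 3 counts corresponded to between 0.0244 and 0.0632 CPM and covers counting error only.

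The genes and lists were chosen with earlier results of these data known. The genes named are *Trpc1*, the 10 endothelial genes, all VEGF and angiopoietin ligands and neuropilins, up to 4 genes of each other vessel list and up to 2 of each list of other cells with the smallest unadjusted P under 0.05 (or the 1 with the smallest P), and the 5 genes most like the 10. *Vcam1* and *Sele* were named outside this rule. *Ahsp* had no matching symbol in the table, and *Cnn1*, *Gdf2*, and *Bmp10* did not pass the filter. A gene that this rule names among the erythroid markers is not reported here.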

Additional observations from a re-analysis of the deposited data

Results flagged for a closer look

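Of 50 named genes, 3 had a WT sample far from the other 3, past the 95% limit of Dixon's test, and in each it was WT replicate 1. *Vegfa* had 45.0 CPM there against 33.9 to 35.65 CPM in the other WT samples, a gap of 0.840 of the WT range. Without WT replicate 1 the logFC of *Vegfa* was −0.28. Leaving out the highest WT sample could not make the groups overlap, so their lack of overlap was not tested by it. *Vcam1* had 168.1 CPM against 272.0 to 292.9 CPM (0.833 of the range), and *Sele* had 6.58 CPM against 9.24 to 9.77 CPM (0.835 of the range). *Vcam1* and *Sele* were added to the named genes after their values were seen. Chance alone flags about 1 in 20 such groups.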

How the results depend on the processing

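No alternative called any of the 10 endothelial genes, and 8 to 10 of them had a negative logFC in each of the 17 alternative fits. *Tie1* stayed between −0.40 and −0.26 in all of these, with an adjusted P from 0.104 to 0.932. Over all genes, DESeq2 called 294, limma-voom called 1, and the fits with a sample left out called 0 to 52, the 52 without WT replicate 1. The 10 genes held 2 at an unadjusted P under 0.05, *Tie1* and *Emcn*, with limma-voom, upper quartile normalization, and the stricter filter (more than 5 CPM in at least 3 samples), and 1 to 2 with a sample left out. No sign was seen that the replicate numbers pair the samples, although 3 pairs are too few to decide it. The deviations of same-numbered samples had a mean correlation of −0.199 (0.0655 for other pairs), and 0 of 3 correlated best with their own number. With the replicate block, on replicates 1 to 3, edgeR called 0 genes, and the median logFC of the 10 genes was −0.12. Signs reversed for *Pecam1* (−0.069 to 0.0068 with a sample left out, positive without WT replicate 3), *Kdr* (−0.0375 with library size alone, −0.049 to 0.060 with a sample left out, negative without *Trpc1*-/- replicate 2), *Flt4* (−0.15 to 0.0031, positive without *Trpc1*-/- replicate 1), *Vegfb* (−0.0030 with mouse numbers of the 1300s only, −0.00168 with the mouse number as a covariate), *Angpt4* (0.082 with the replicate block, 0.11 with the 1300s only and 0.11 with the covariate, −0.12 to 0.086 with a sample left out, positive without *Trpc1*-/- replicate 3 and without WT replicate 4), and *Pf4* (−0.00085 to 0.31, negative without WT replicate 1). List medians that moved by more than the spread between samples were those of the VEGF list (−0.20 with the stricter filter), the angiopoietin list (−0.29 with the 1300s only and −0.29 with the covariate, −0.24 to −0.046 with a sample left out), the transcription factors (−0.12 with library size alone, −0.11 to −0.00786 with a sample left out), the other endothelial markers (−0.16 to −0.032), the sinusoid list (−0.11 with library size alone, −0.00200 with the 1300s only, −0.00118 with the covariate), the chondrocyte markers (−0.78 to −0.27), and the osteoblast markers (−0.52 to −0.20). The stricter filter left out *Vegfb*, *Vegfd*, and *Pgf*, so that the median of the VEGF list is there taken over fewer genes. Causes of the other moves were not tested. Another scaling moved the median of all genes by at most 0.058. The mouse numbers, which were read from the library names, lay outside the 1300s in WT samples alone. With 4 and 3 samples, the interval of each of the 10 genes still allows differences of the sizes given beside it.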
